A study of Mus musculus with 2 samples.

Results

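The let-7 and miR-98 family was examined in exosomes, small vesicles released by cells, from cultures of murine BMSCs (bone marrow-derived mesenchymal stem cells, the stromal progenitors of bone, cartilage and fat). Its 10 members were taken by name from the 1881 mouse miRNAs on the array. They were mmu-let-7a-5p, mmu-let-7b-5p, mmu-let-7c-5p, mmu-let-7d-5p, mmu-let-7d-3p, mmu-let-7e-5p, mmu-let-7f-5p, mmu-let-7g-5p, mmu-let-7i-5p and mmu-miR-98-5p. The study asked how oxygen supply alters what these exosomes carry, with lung cancer cells as the recipients of interest. The BMSCs came from C57BL/6 mice, were bought from a supplier and grew in MEM with 10% serum. For the collection of exosomes the paper states that this serum was first depleted of its own exosomes by ultracentrifugation and filtration. The normoxia group is 1 array of exosomes from cells in normoxia, whose oxygen level the labels do not give. The hypoxia group is 1 array of exosomes from cells kept at 0.2% oxygen. Medium was collected after 72 h and exosomes were obtained by differential centrifugation, filtration and a precipitation reagent, so other particles that precipitate with exosomes cannot be told apart from them. The Cy3-labelled RNA was read on a 1-colour Agilent miRNA array.

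MicroRNAs (miRNAs) are short RNAs that an Argonaute protein holds and uses to find partly complementary messenger RNAs, which are then repressed. Pairing runs mainly through the seed, the bases near the 5′ end, so miRNAs with 1 seed share many targets. The let-7 family accumulates as cells differentiate, is blocked in stem cells by the RNA-binding protein LIN28, and represses growth genes such as Ras genes and Hmga2. Each hairpin precursor has a 5′ arm and a 3′ arm; in this family the 5′ arm is usually the one kept.

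The mature sequences are shown because the members differ by few bases, which bears on what each array value measures. All 10 members matched a mature sequence in RefSeq (annotation of GRCm38.p6), and 1608 of the 1881 array miRNAs did. Each is written 5′ to 3′ with the seed, bases 2 to 8, in capitals.
mmu-let-7a-5p: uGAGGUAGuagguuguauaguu
mmu-let-7b-5p: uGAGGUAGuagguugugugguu
mmu-let-7c-5p: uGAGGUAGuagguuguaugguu
mmu-let-7d-5p: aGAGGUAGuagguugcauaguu
mmu-let-7e-5p: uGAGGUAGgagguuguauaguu
mmu-let-7f-5p: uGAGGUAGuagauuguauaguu
mmu-let-7g-5p: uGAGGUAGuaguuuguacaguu
mmu-let-7i-5p: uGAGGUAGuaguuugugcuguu
mmu-miR-98-5p: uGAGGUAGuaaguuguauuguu
mmu-let-7d-3p: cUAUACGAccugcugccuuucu
All 9 of the 5p members are 22 bases long and have the seed GAGGUAG. The exception is let-7d-3p, the opposite arm of the let-7d hairpin, whose seed is UAUACGA. Counted from 1 at the 5′ end and with the base of let-7a-5p first, let-7c-5p differs from let-7a-5p by A19G, let-7e-5p by U9G and let-7f-5p by G12A. The change is A17G and A19G for let-7b-5p, U1A and U16C for let-7d-5p, G12U and U18C for let-7g-5p, and G11A and A19U for miR-98-5p. The most distant from let-7a-5p is let-7i-5p, with G12U, A17G, U18C and A19U. Among the 36 pairs of 5p members the number of mismatches ran from 1 to 6, and 4 pairs were 1 base apart. The probe sequences are not used here, so how far such near-identical miRNAs share a probe's signal was not tested, and the values of single members are uncertain to that extent.

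Each spot value is the scanner software's processed signal, a linear intensity from which the background has been subtracted. A probe was called detected where more than 50% of its unflagged spots were well above background. The difference of a miRNA is the log2 of hypoxia over normoxia after quantile normalization, averaged over its probes detected on both arrays. Errors are over the replicate spots of a probe inside an array (n = number of spots). They leave out the spread between cultures, exosome isolations and labellings, which was not measured, and with 1 array per condition there is no test and no p-value. Levels are compared within a probe only. In RNA from a bulk preparation, fewer exosomes and less of a miRNA per exosome cannot be told apart.

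On the whole array 225 miRNAs were detected in normoxia and 199 in hypoxia, and 180 were measured on both. The software marked the hypoxia array for a spot-to-spot coefficient of variation of 15.8%, against 9.68% in normoxia, and for a labelling spike-in signal out of range. Without normalization the labelling spike-ins differed by −0.44 and −0.51 and the hybridization spike-ins by −0.09 and −0.16 (log2 difference, hypoxia minus normoxia). Among 7 miRNAs listed as common in mesenchymal cells, 6 were detected on both arrays and miR-145a-5p was detected on neither. How specific the listed miRNAs are to such cells was not tested. The differences of the 6 lay between 0 for miR-21a-5p, which ranked equally on both arrays, and 1.20 for miR-214-3p, with a median of 0.15. Of 10 miRNAs typical of blood cells and serum, 5 were detected in normoxia and 1 in hypoxia. Their summed signal was 607 in normoxia and 46.4 in hypoxia. The erythroid miR-451a had signals of 448 and 26.5, and the liver miRNA miR-122-5p, common in serum, had 78.5 and 7.04. The erythroid miR-144-3p (22.1 and 3.69), the myeloid miR-223-3p (23.6 and 3.20) and the endothelial miR-126a-3p (20.9 and 2.03) were detected in normoxia only. These 5 were lower in hypoxia, as most let-7 members were, and their part in the family's result was not tested. The other 5 of the list, miR-144-5p, miR-486a-5p, miR-142a-3p, miR-142a-5p and miR-150-5p, were not detected on either array.

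Nearly the whole family was present in the exosomes of both conditions. Of the 10 members, 9 were measured on both arrays, where 9.57% of all array miRNAs were. The exception was miR-98-5p, which was detected on neither. The 10 members were represented by 22 probes, of which 17 were detected in normoxia and 15 in hypoxia. All 15 of those were measured on both arrays, 14 of them for 5p members. Of the 300 spots that each array carried for the family, 20 were flagged as outliers in normoxia and 8 in hypoxia and were left out. No spot was saturated.

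After quantile normalization 7 of 8 measured 5p members were lower in hypoxia than in normoxia, by small amounts, while let-7e-5p and let-7d-3p were higher. Of the 7, let-7d-5p did not differ from 0 within its error (−0.02 ± 0.064, SE). The median difference of the 9 measured members was −0.32, against 0.17 over all 180 measured miRNAs. The 7 lower 5p members were below that median, where 50% of all miRNAs lie by construction. One member was at least 2-fold higher in hypoxia, let-7d-3p, beside 18.3% of all measured miRNAs, and 0 members were at least 2-fold lower, beside 10.0%. The direction against 0 depended on the normalization. The 75th-percentile scaling over all probes turned the median of the members to 0.29, with 2 of 8 measured 5p members below 0. It shifted the median of all miRNAs by 0.49. On each array the 75th percentile of the processed signal (3.63 in normoxia, 2.64 in hypoxia) was under the lowest detected signal (14.5 and 13.5). This scaling thus rests on probes at background. Relative to the other miRNAs, 7 of 8 measured 5p members were below the median of all both with quantile normalization and without normalization. The 4 other scalings move every miRNA alike and so cannot alter that position.

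**Figure D1:**
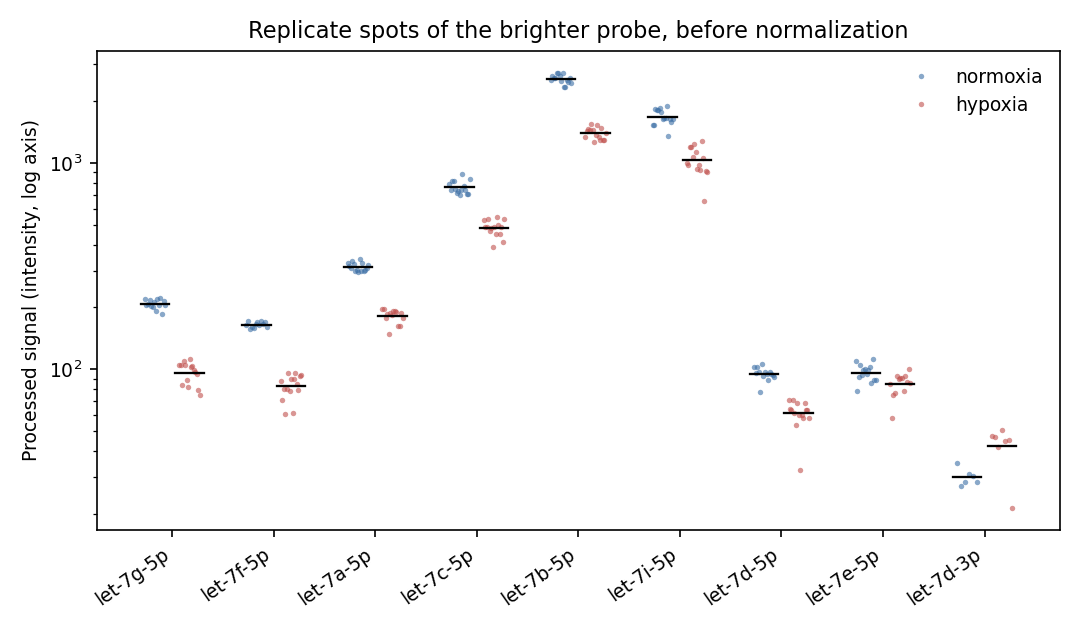
Processed signal (log axis) of each unflagged replicate spot of the brighter probe of the 9 members measured on both arrays, before normalization, with normoxia in blue, hypoxia in red and the mean as a black bar. The hypoxia spots of let-7g-5p, let-7f-5p, let-7a-5p, let-7c-5p, let-7b-5p, let-7i-5p and let-7d-5p all lie below the normoxia spots, while those of let-7e-5p and let-7d-3p overlap.

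The lowest difference in the family was that of let-7g-5p, whose gene sits inside Wdr82. The normoxia spots of its brighter probe ran from 185 through a median of 206 to 223, with a mean of 207 ± 11.1 (SD, n = 14 spots). The hypoxia spots ran from 74.8 through 99.6 to 113, with a mean of 96.2 ± 11.8 (SD, n = 15 spots). Every hypoxia spot was below every normoxia spot. The second probe went from 55.0 to 25.5, also without overlap. The normalized difference of let-7g-5p was −0.65 ± 0.054 (SE), which is 1.57-fold lower in hypoxia. Without normalization it was −1.11, or 2.16-fold lower, the only 5p member past 2-fold under any of the 6 normalizations.

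The next in order was let-7f-5p, which is G12A relative to let-7a-5p. Its brighter probe had normoxia spots from 157 to 172 with a median of 164 and hypoxia spots from 60.6 to 96.4 with a median of 84.7, so the arrays did not overlap. The means were 165 ± 4.99 (SD, n = 12 spots) and 82.8 ± 11.4 (SD, n = 15 spots), and the normalized difference was −0.52 ± 0.053 (SE). The dimmer probe was detected in normoxia only, with 27.8 against 12.6. That difference is a bound of at least 1.42-fold lower in hypoxia.

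The reference sequence of the comparisons above, let-7a-5p, gave normoxia spots from 294 to 344 and hypoxia spots from 149 to 196, with medians of 311 and 186. The groups of spots did not overlap. The means were 314 ± 15.1 (SD, n = 15 spots) and 181 ± 14.3 (SD, n = 14 spots), and the second probe went from 73.1 to 40.9. The normalized difference of let-7a-5p was −0.42 ± 0.044 (SE).

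The related let-7b-5p and let-7c-5p, 1 base apart at position 17, had the same difference within error. For let-7c-5p the brighter probe had a median of 739 (range 699 to 886) in normoxia and of 488 (range 393 to 549) in hypoxia. Its means were 762 ± 55.9 and 485 ± 44.6 (SD, n = 15 spots each), and the normalized difference was −0.33 ± 0.046 (SE). For let-7b-5p the brighter probe had a median of 2563 (range 2324 to 2735) in normoxia and of 1395 (range 1261 to 1540) in hypoxia. Both of these probes were lower in hypoxia in every spot. The normalized difference of let-7b-5p was −0.32 ± 0.028 (SE), but its probes differed in size. The brighter probe of let-7b-5p gave −0.51 and the dimmer one −0.14, and in the dimmer one the spots overlapped (415 to 519 in normoxia, 285 to 424 in hypoxia).

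The 5p member farthest from let-7a-5p by sequence, let-7i-5p, was also lower. Its brighter probe had a median of 1640 (range 1344 to 1875) in normoxia and of 995 (range 654 to 1272) in hypoxia, with no overlap. The normalized difference of let-7i-5p was −0.20 ± 0.038 (SE), made of −0.09 for the brighter probe and −0.31 for the dimmer one.

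The position of let-7d-5p rested on the normalization. Its brighter probe had a median of 95.6 (range 77.6 to 106) in normoxia and of 63.3 (range 32.4 to 71.3) in hypoxia, again with no overlap. The difference was −0.64 without normalization and −0.02 ± 0.064 (SE) after quantile normalization. The dimmer probe was detected in normoxia only, with 21.7 against 11.6, a bound of at least 1.14-fold lower.

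The only 5p member that was higher after quantile normalization was let-7e-5p. Its brighter probe had a median of 96.9 (range 78.7 to 113) in normoxia and of 87.3 (range 57.9 to 99.8) in hypoxia, and these spots overlapped. The dimmer probe went from 29.3 to 26.2, also overlapping. Both probes were thus about level before normalization, and they gave 0.34 and 0.41 after it. The normalized difference of let-7e-5p was 0.38 ± 0.054 (SE). It turned to −0.17 without normalization and to −0.05 with scaling to the hybridization spike-ins.

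The member with the other seed, let-7d-3p, was the one at least 2-fold higher in hypoxia, with a difference of 1.05 ± 0.14 (SE), or 2.07-fold. It was measured by 1 dim probe with a median of 29.4 (range 27.3 to 35.1) in normoxia and of 45.6 (range 21.2 to 51.0) in hypoxia. The means were 30.1 ± 2.82 (SD, n = 6 spots) and 42.7 ± 9.86 (SD, n = 7 spots), and the spots overlapped because the lowest spot of all was in hypoxia. Its 3 other probes were not detected on either array. Without normalization the difference was 0.50, and it was under 2-fold with 4 of the 6 normalizations.

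For miR-98-5p both probes were at background. Their means were 6.93 and 8.60 in normoxia and 3.72 and 6.45 in hypoxia, under the lowest signal of any detected probe, which was 14.5 in normoxia and 13.5 in hypoxia. No fold is given for miR-98-5p.

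Before normalization, all 14 probes measured for 5p members had a lower mean in hypoxia, beside 64.3% of all measured probes. For 11 of the 14, every hypoxia spot was below every normoxia spot, which held for 37.4% of all 305 probes measured on both arrays. The 3 others were both probes of let-7e-5p and the dimmer probe of let-7b-5p. Of the 6 members with 2 probes measured on both arrays, all 6 had probes of the same sign after normalization, as did 86.1% of the 115 array miRNAs with more than 1 probe measured.

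**Figure D2:**
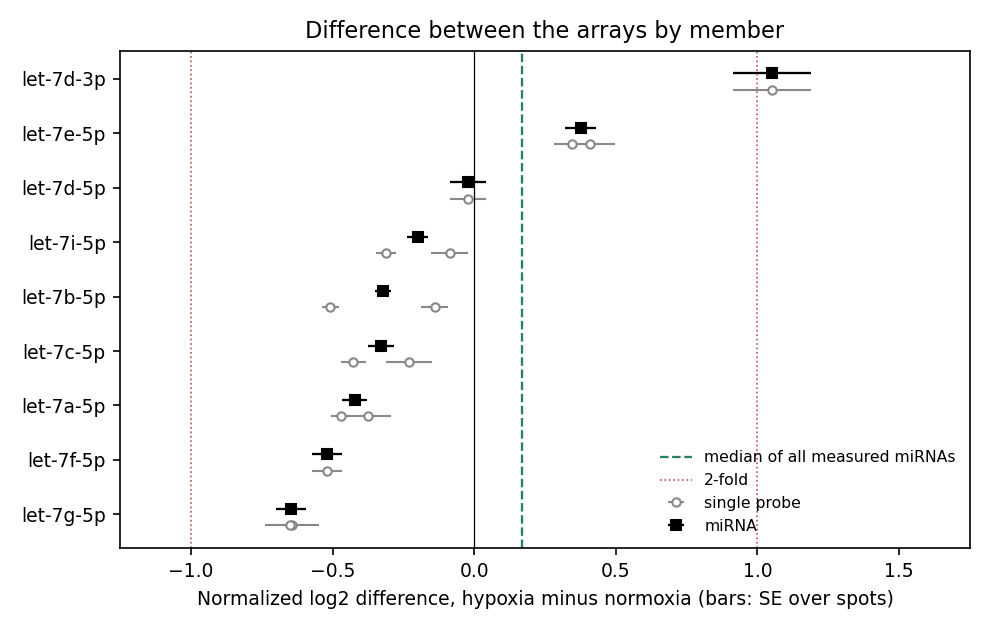
Normalized log2 difference, hypoxia minus normoxia, of the 9 measured members (black squares) and of their single probes (open circles), with bars for the SE over spots, a dashed line at the median of all 180 measured miRNAs (0.17) and dotted lines at 2-fold. The members run from −0.65 for let-7g-5p to 1.05 for let-7d-3p, and 7 of them lie to the left of 0.

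In order of their differences the members ran let-7g-5p, let-7f-5p, let-7a-5p, let-7c-5p, let-7b-5p, let-7i-5p, let-7d-5p, let-7e-5p and let-7d-3p. The first 5 were not separated from their neighbours, since each gap was within 2 SE. The gap from let-7b-5p to let-7i-5p was 0.12 and from there to let-7d-5p 0.18, both beyond 2 SE over spots. These gaps were smaller than the distance between the 2 probes of let-7b-5p (0.37) or of let-7i-5p (0.22), so they do not separate the members. The gap from let-7d-5p to let-7e-5p was 0.40 and from there to let-7d-3p 0.68, beyond 2 SE and above the widest distance between probes of 1 member. Of the 180 measured miRNAs, 32 had a lower difference than let-7g-5p, 106 than let-7e-5p and 149 than let-7d-3p. Every member thus lay well inside the range of the other miRNAs.

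The lowest 5p member was let-7g-5p and the highest let-7e-5p without normalization and in each of the 9 alternatives that changed the background correction, the filter, the probes or the spots. The middle of the order depended on the normalization. Without normalization let-7c-5p, let-7d-5p, let-7b-5p and let-7i-5p lay between −0.67 and −0.62, too close to be ordered. Single-factor scalings move every miRNA by the same amount, so this tight middle group held for all 5 of the normalizations other than quantile.

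**Figure D3:**
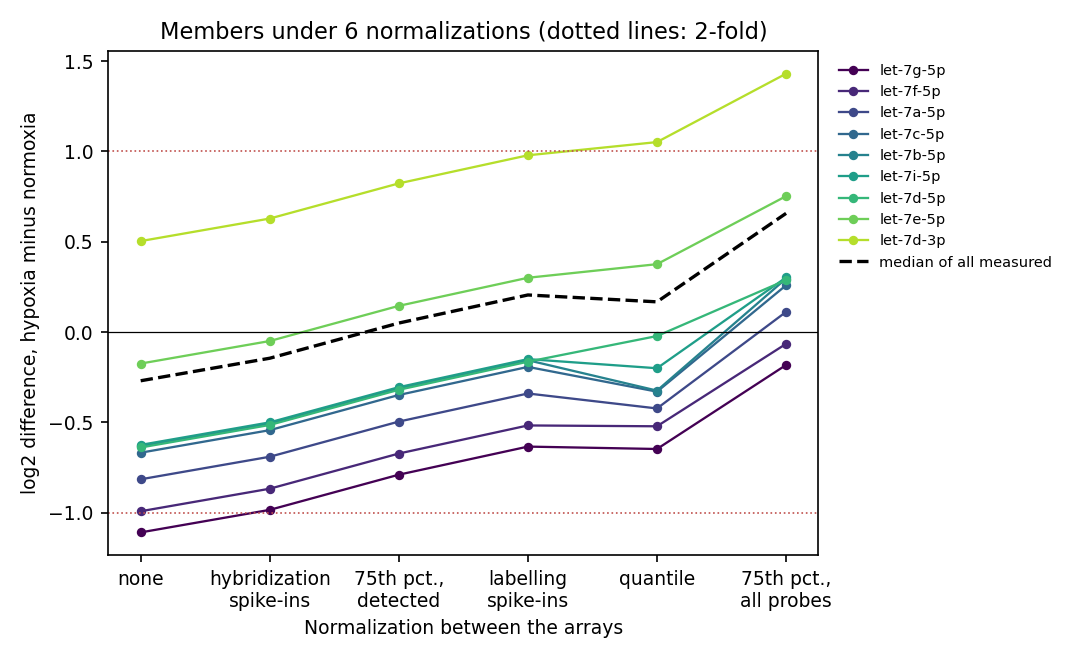
Log2 difference, hypoxia minus normoxia, of the 9 measured members (coloured lines) under no normalization, scaling to hybridization spike-ins, to the 75th percentile of detected probes and to labelling spike-ins, quantile normalization and 75th-percentile scaling over all probes, with the median of all measured miRNAs dashed and 2-fold dotted. The whole family moves up and down with the median of all, let-7d-3p and let-7e-5p stay above it, and the other 7 stay below it.

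Pairs that differ by 1 base show how the differences relate to the sequences printed above. Between let-7a-5p and let-7c-5p (A19G) the difference moved by 0.09 ± 0.063, and between let-7a-5p and let-7f-5p (G12A) by −0.10 ± 0.069 (SE of the gap). From let-7b-5p to let-7c-5p (G17A) it moved by −0.01 ± 0.054. These 3 gaps were within 2 SE after quantile normalization. Without normalization they were 0.15, −0.18 and −0.04, of which the first 2 were beyond 2 SE. Between let-7a-5p and let-7e-5p (U9G) the gap was 0.80 ± 0.070, and it was 0.64 without normalization. Across all alternatives this gap ran from 0.42 with normexp background correction to 0.84 with odd spots only. It was the largest of the 4 single-base gaps with and without normalization. It describes these 2 arrays, and the share of signal crossing between the probes of let-7a-5p and let-7e-5p was not tested.

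**Figure D4:**
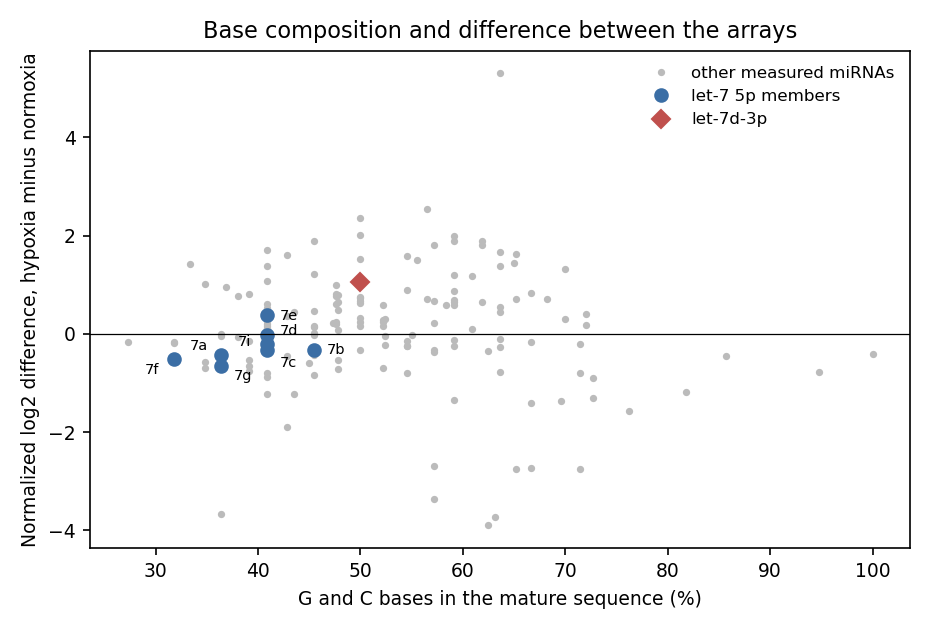
Share of G and C bases in the mature sequence (%) against the normalized log2 difference for the 8 measured 5p members (blue, labelled), let-7d-3p (red diamond) and 152 other measured miRNAs with a sequence (grey). The 5p members occupy the narrow range from 31.8% to 45.5%, in which the grey points spread widely in both directions.

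Base composition followed the order of the 5p members only loosely. The 8 measured 5p members hold 7 to 10 G or C bases, or 31.8% to 45.5%. The member with 7, let-7f-5p, was at −0.52, and those with 8, let-7a-5p and let-7g-5p, were at −0.42 and −0.65. The 4 members with 9 spread from −0.33 to 0.38, and let-7b-5p with 10 was at −0.32. Spearman's rho between G and C content and the difference was 0.70 over these 8 members, Pearson's r was 0.49, and the members share both libraries and most of their bases. Over the 161 measured miRNAs with a sequence rho was 0.01. These correlations are across miRNAs, which are not independent replicates, and are given as a description.

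The arms of the let-7d hairpin stood apart. The hairpin lies at chr13:48536012-48536114 on the minus strand (GRCm38.p6), in no protein-coding gene. It is shown, 5′ to 3′, because both arms were measured, with let-7d-5p and let-7d-3p in capitals in that order.
Mirlet7d hairpin: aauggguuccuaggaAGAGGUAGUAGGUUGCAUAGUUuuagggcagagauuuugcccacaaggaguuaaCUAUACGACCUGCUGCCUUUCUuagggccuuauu
The difference of the 3p arm exceeded that of the 5p arm by 1.07 ± 0.15 (SE of the gap), and by 1.14 without normalization. Across all alternatives the gap was positive and ran from 0.43 to 2.25. It rests on 1 probe for each arm, and that of let-7d-3p is dim. Of 11 further arms of the family's hairpins, 10 were on the array and none was detected in either condition, with probe means between −3.04 and 3.92 in normoxia and between −3.49 and 3.37 in hypoxia. Thus let-7d-3p was the only 3p arm of the family detected on these arrays.

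Other array miRNAs found to have the seed GAGGUAG were mmu-let-7k and mmu-miR-1961.
mmu-let-7k: uGAGGUAGgagguugugug
mmu-miR-1961: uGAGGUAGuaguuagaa
Among the 1608 array miRNAs matched to a sequence, 11 thus had this seed, 9 of them members. Of the other 2, miR-1961 was not detected, and let-7k was detected in hypoxia only. The brighter let-7k probe went from 6.32 ± 4.12 to 15.4 ± 5.60 between normoxia and hypoxia (SD over 15 spots each). After quantile normalization this is a bound of at least 1.59-fold higher in hypoxia. Before normalization its hypoxia mean was close to the lowest signal of any detected probe, 14.5 in normoxia and 13.5 in hypoxia, so the size of the bound rests on the normalization. Like let-7e-5p, let-7k has a G directly after the seed. Whether that base bears on the values, and how far signal crosses between the probes of let-7e-5p and let-7k, was not tested. The remaining miRNA with let-7 in its name, mmu-let-7j, was not detected on either array.

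Several members are made from transcripts that also carry miRNAs of the miR-99/100 and miR-125 families, and these were compared because 1 transcript yields them together. A cluster on chromosome 17 spans 686 bp inside Spaca6 and holds Mir99b, Mirlet7e and Mir125a. Its 3 miRNAs were all above the median of all measured miRNAs. Beside 0.38 for let-7e-5p, miR-99b-5p had a difference of 1.38 ± 0.18 (SE; mean signals 15.0 and 26.6) and miR-125a-5p one of 0.63 ± 0.080 (SE; 52.1 and 55.5). Without normalization miR-99b-5p was at 0.82 and miR-125a-5p at 0.09, against −0.17 for let-7e-5p, so let-7e-5p was the lowest of the 3 with and without normalization.

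After quantile normalization the cluster on chromosome 9 gave values of both signs. In the cluster on chromosome 16, let-7c-5p and miR-125b-5p were lower in hypoxia and miR-99a-5p was not measured on both arrays. On chromosome 9, Mir100, Mirlet7a-2 and Mir125b-1 lie within 50578 bp. There miR-100-5p was at 0.73 ± 0.031 (SE; 268 and 319), while let-7a-5p was at −0.42 and miR-125b-5p at −0.32 ± 0.060 (SE; 2264 and 1095). On chromosome 16, Mir99a, Mirlet7c-1 and Mir125b-2 lie within 47404 bp. Here miR-99a-5p was detected in normoxia only, with 20.3 against 14.1, a bound of at least 1.02-fold lower. That bound is too near to no difference to give a direction. In the same cluster let-7c-5p was at −0.33 and miR-125b-5p, which has a locus in both clusters, at −0.32. Of the 5 partner miRNAs, 4 were measured on both arrays, with a median of 0.68. Of these, 1 was at least 2-fold higher, miR-99b-5p, beside 18.3% of all measured miRNAs. That dim miRNA was under 2-fold without normalization (0.82) and with scaling to the hybridization spike-ins (0.95). The sign of miR-125b-5p turned to 0.04 with 75th-percentile scaling over all probes, whereas miR-99b-5p, miR-100-5p and miR-125a-5p were above 0 under all 6 normalizations.

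The remaining clusters hold family members alone. On chromosome 13, Mirlet7a-1, Mirlet7f-1 and Mirlet7d lie within 2261 bp, and their 5p products were at −0.42, −0.52 and −0.02. On chromosome 15, Mirlet7c-2 and Mirlet7b lie within 801 bp, with products at −0.33 and −0.32. On chromosome X, Mirlet7f-2 and Mir98 lie within 976 bp inside Huwe1, where let-7f-5p was measured and miR-98-5p was not detected. Mirlet7i on chromosome 10 and Mirlet7g on chromosome 9 had no other miRNA of these lists within 60000 bp. Each of let-7a-5p, let-7c-5p and let-7f-5p comes from 2 of these loci, as does miR-125b-5p. The array reads the mature sequence, so the loci behind 1 value cannot be told apart.

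**Figure D5:**
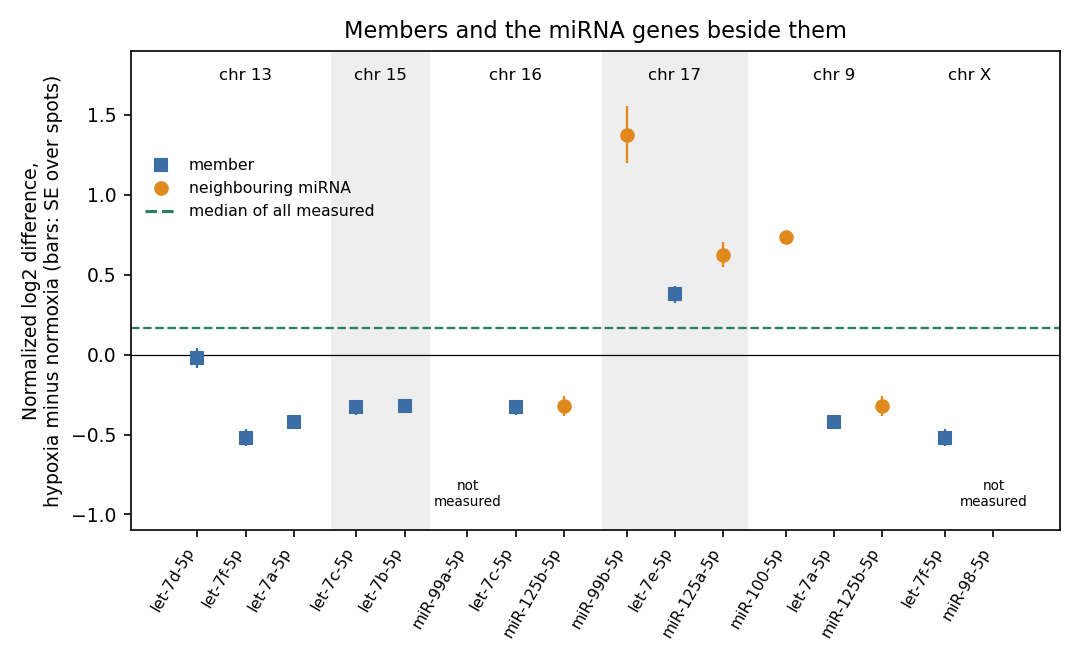
Normalized log2 difference, hypoxia minus normoxia, of members (blue squares) and neighbouring miRNAs (orange circles), grouped by genomic cluster and labelled by chromosome, with bars for the SE over spots and a dashed line at the median of all measured miRNAs (0.17). A miRNA made from 2 loci appears at both with the same value. The chromosome 17 cluster lies above the dashed line as a whole, while the clusters of chromosomes 13 and 15 lie below it.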

How the data were processed

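The deposited intensity of each spot is the processed signal of Feature Extraction 11.5.1.1, which the authors ran on both images; per the file headers it is corrected for background and spatial trend and is not normalized between arrays. The other deposited columns used are 0 or 1 flags, the software's summed intensity per miRNA, and median intensities of the spots and their local background. The deposited value table held the same processed signal. The methods name Agilent's miRNA labelling kit, whereas the labels describe reverse transcription of total RNA. The array design is built on mm9.

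Unflagged spots (none of the 4 outlier flags set) were averaged per probe. Probe means were quantile-normalized, as the study states, and 2-fold was taken from its text. Where 1 array detected a probe, its signal was divided by the larger of the dim array's lowest detected normalized signal (12.0 in normoxia, 16.1 in hypoxia) and the dim probe's own. The number of arrays limits the precision. The arrays were grouped by their labels, and array position and condition cannot be told apart.

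The members and all lists were chosen with earlier results of these data known. Named miRNAs are all members, other arms and let-7 names, sharers of the seed, miRNAs of shared transcripts, and the 3 other miRNAs nearest to the members' median. Alternatives were other scalings, normexp (offset 50, limma 3.58.1, R 4.3.3), other filters and spot summaries, and odd or even spots. Scripts (Python 3.11.15, numpy 2.4.6, pandas 2.3.3) were tested on simulated data.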

Additional observations from a re-analysis of the deposited data

How the results depend on the processing

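The count of measured members stayed at 9 wherever a detection call was made; without a filter on dim probes there is no such count. The count of members at least 2-fold apart, 1 with quantile normalization, was 0 with 75th-percentile scaling over the probes measured on both arrays, with hybridization or labelling spike-ins, with normexp, with no filter and with odd spots only. Without normalization it was 1, but the member was let-7g-5p, lower, in place of let-7d-3p, higher. The median of the members, −0.32, was −0.64 without normalization, turned to 0.29 with 75th-percentile scaling over all probes and to 0.073 with outlier flags kept. That 75th-percentile scaling, which rests on probes at background, also turned let-7a-5p (0.11), let-7b-5p (0.30), let-7c-5p (0.26), let-7d-5p (0.29) and let-7i-5p (0.30). Keeping flagged spots turned let-7b-5p (0.21), let-7c-5p (0.020), let-7d-5p (0.073) and let-7i-5p (0.13); on the normoxia array 35 flagged spots were above 1000, the brightest at 136687, and on the hypoxia array 22 were, the brightest at 15904. The difference of let-7e-5p turned to −0.17 without normalization and to −0.049 with the hybridization spike-ins. Of 126 values of single members under alternatives, 86 stayed within the spot SD, 29 left it and 11 turned, for 6 members. Some of the 86 could not move, such as the brightest-probe value of a member with 1 measured probe. Each single-factor scaling also shifts all members alike, so this tally is not a measure of how stable the values are. The members' median minus that of all miRNAs, −0.49, was −0.37 without normalization, which the 4 single-factor scalings cannot alter. It lay between −0.75 and −0.28 in the 9 other alternatives that changed the values. The −0.75 came with no filter, where dim probes were set to each array's lowest detected normalized signal. Most of the 1881 miRNAs were dim there, so those limits fixed the median of all. Without that alternative the lowest was −0.58, with the brightest probe. Leaving out a replicate was not possible with 1 array per condition. No paired analysis was possible because there was a single array for normoxia and a single one for hypoxia. Dim probes limit let-7d-3p, let-7k, miR-99a-5p and miR-99b-5p, whose brighter probes read 30.1 or less in normoxia.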

Other observations

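The miRNAs outside the family and its lists with a difference nearest to the members' median of −0.32 were miR-92a-3p, miR-652-5p and miR-676-3p. Their normalized log2 differences, hypoxia minus normoxia, were −0.32 ± 0.069, −0.36 ± 0.038 and −0.37 ± 0.067 (SE over spots). The likeness is over 2 arrays only.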
